A study of Mus musculus with 16 samples.

Results

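Myc and 7 transport proteins of the cell surface were followed through the activation of 2 subsets of mouse CD4+ T cells. The transporters were Slc7a5 and Slc3a2, the light and the heavy chain of the CD98 carrier of large neutral amino acids, Slc1a5, a carrier of glutamine and other neutral amino acids, Slc7a1, a carrier of arginine and other cationic amino acids, Slc38a1 and Slc38a2, sodium-coupled carriers of glutamine, alanine and other small neutral amino acids, and Tfrc, the transferrin receptor that takes up iron. The genes were chosen by name, with earlier results of these data known. They are the rows of the deposited table annotated with these symbols, and all 8 were found among 16475 measured genes.

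T cells that meet antigen grow before they divide, and MYC is the transcription factor best known for driving this growth in activated lymphocytes. MYC pairs with MAX at E-box sequences, and genes of ribosome assembly, nucleotide synthesis, glycolysis and glutamine use are among its known targets. The surface CD98 carrier and the transferrin receptor are both classical markers of lymphocyte activation. Leucine that enters through CD98 keeps the kinase mTORC1 active, and mTORC1 in turn promotes the translation of many mRNAs.

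Spleens and lymph nodes of female mice were the source of the cells. The mice were 6 to 12 weeks old, on the C57BL/6 background, and all carried GFP knocked into the Foxp3 locus, so that green fluorescence marks cells expressing FOXP3, the transcription factor of regulatory T cells. CD4+ cells were sorted to a purity over 97% into Foxp3+ cells, which are regulatory T cells, and Foxp3- cells, which are the other CD4+ T cells. Both subsets were measured after 36 h of activation with plate-bound antibodies to CD3 and CD28, at 5 µg/ml, and 100 U/ml human interleukin-2, and also directly ex vivo. From every preparation mRNA carrying at least 3 ribosomes, called polysome-associated mRNA, and total cytosolic mRNA were each hybridised to a microarray, which gave 16 arrays in 8 groups of 2.

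The 8 groups were activated Foxp3+, activated Foxp3-, ex vivo Foxp3+ and ex vivo Foxp3- cells, each as polysome-associated and as cytosolic mRNA. Cycloheximide at 100 µg/ml was in every buffer and medium used for the ex vivo cells. Activated cells received it in the medium only when their culture ended. Exposure to it thus differed between ex vivo and activated cells, and its part in the values was not tested. The methods call the arrays of a group biological duplicates, and each ex vivo sample was pooled from 2 experiments. Foxp3 itself matched the labels of the sort. Its cytosolic level was 10.48 and 9.76 on the arrays of activated Foxp3+ cells and 5.28 and 5.86 on those of activated Foxp3- cells, and it was 10.29 and 10.65 in ex vivo Foxp3+ cells and 3.74 and 3.75 in ex vivo Foxp3- cells. All 6 measured T cell markers were over the array median in every group.

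All values are log2 intensities after robust multiarray averaging, which normalizes the arrays to each other. A difference of 1 is thus a 2-fold change relative to the other genes of the array. Array medians lay between 4.845 and 5.065, but the spread of the gene values differed. Its interquartile range was 2.62 and 2.67 on cytosolic arrays of activated Foxp3+ cells, against 3.34 and 3.03 in activated Foxp3- cells. On their polysome arrays it was 2.78 and 2.9 against 3.38 and 3.43, and on ex vivo arrays 3.03 to 3.54. The part of this spread in the differences was not tested. A probe set's brightness also depends on its own sequence, so levels are compared between groups for one gene and never between genes. In bulk samples such as these, fewer cells of a type and less RNA per cell cannot be told apart. Duplicate arrays correlated across genes at 0.887 to 0.992, with the lowest values in activated Foxp3+ cells. The array names fall into 3 series, 1 for all ex vivo arrays, 1 for activated Foxp3- cells and 1 for activated Foxp3+ cells, so that activation, and the subset within activated cells, cannot be told apart from the array series.

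**Figure D1:**
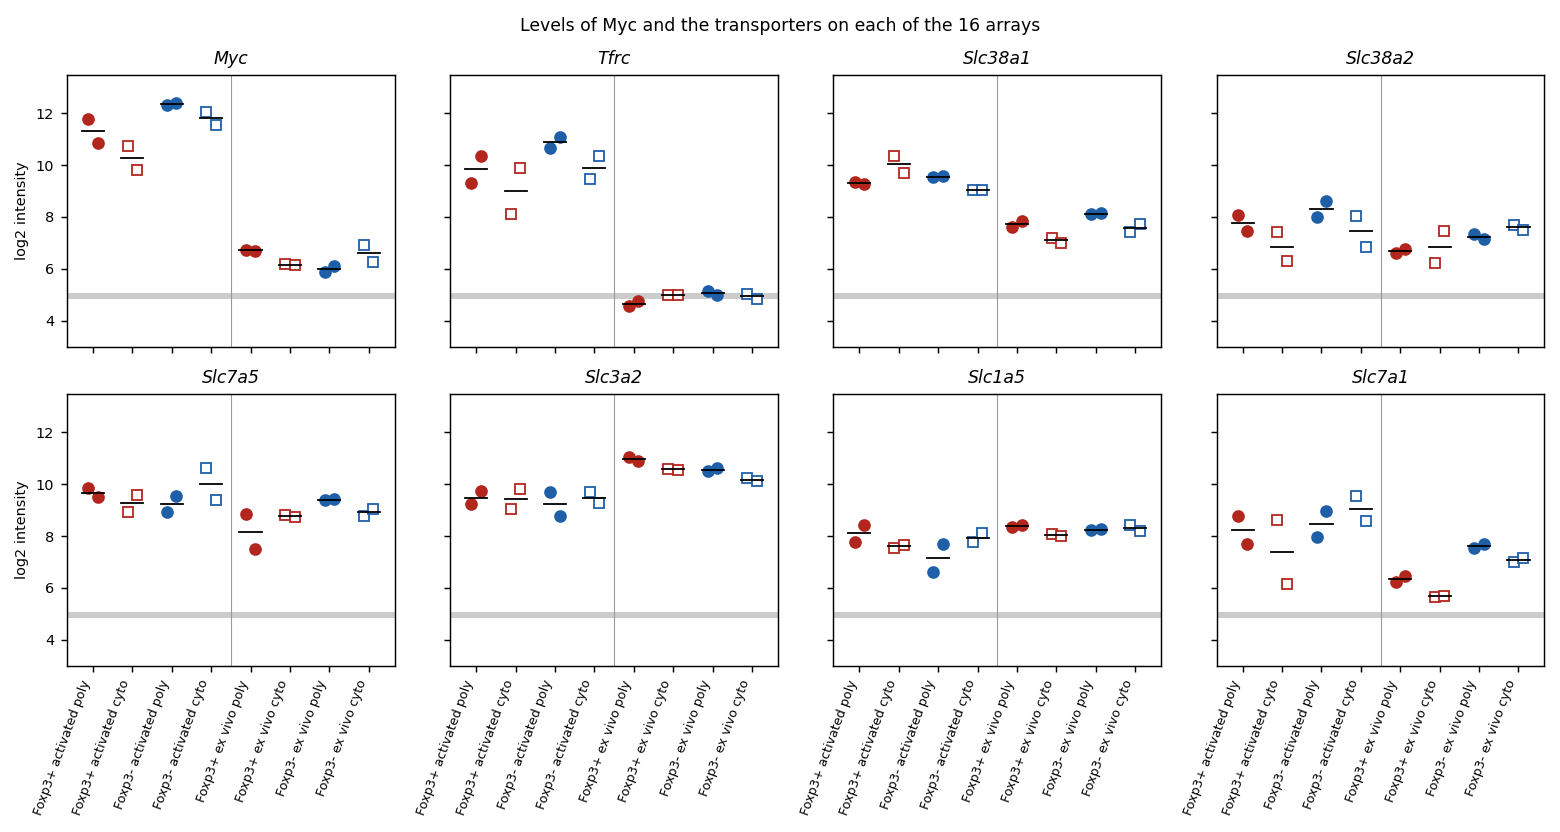
Level of each of the 8 genes on all 16 arrays (y axis, log2 intensity; each panel is 1 gene, activated groups to the left of the vertical line and ex vivo groups to its right). Filled circles are polysome-associated and open squares cytosolic mRNA, red is Foxp3+ and blue Foxp3-, black bars are group means and the grey band is the range of array medians, 4.845 to 5.065. The panels of Myc and Tfrc show the widest gap between activated and ex vivo arrays, and that of Slc3a2 shows activated arrays below the ex vivo ones.

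The first question was how the mRNA of these genes differed between activated cells and cells taken ex vivo. Myc, Tfrc and Slc38a1 were higher after activation in both subsets and in both RNA fractions, Slc3a2 was lower in 3 of these 4 comparisons, and the other 4 genes differed in 1 comparison or in none. Over the 4 comparisons, 5 genes were called in polysome-associated mRNA of Foxp3+ cells, 4 in their cytosolic mRNA, 5 in polysome-associated mRNA of Foxp3- cells and 3 in their cytosolic mRNA, where a call is a limma test with an adjusted p-value below 0.05. The share of all genes called in the same comparisons was 29.3% (14.7% higher and 14.6% lower), 31.4% (16.9% and 14.4%), 30.6% (14.1% and 16.4%) and 26.1% (13.6% and 12.5%). Of all genes, 741 (4.5%) were higher in all 4 comparisons, as were 3 of the 8, and 897 (5.44%) were lower in all 4, as was none of the 8.

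Myc (Entrez Gene 17869, chromosome 15) had the largest difference of the 8 genes in 3 of the 4 comparisons, and Tfrc had it in polysome-associated mRNA of Foxp3+ cells. In activated Foxp3+ cells Myc stood at 11.80 and 10.84 in polysome-associated mRNA and at 10.74 and 9.82 in cytosolic mRNA, and in activated Foxp3- cells at 12.34 and 12.41 and at 12.05 and 11.57 in the same fractions. Ex vivo it stood at 6.74 and 6.69 in polysome-associated and 6.19 and 6.13 in cytosolic mRNA of Foxp3+ cells, and at 5.86 and 6.10 and then 6.92 and 6.27 in Foxp3- cells. The lowest activated array was thus far above the highest ex vivo array, and every array was above its own median. The difference was 4.61 ± 0.37 (SE) in polysome-associated mRNA of Foxp3+ cells, or 24.4-fold (adjusted p = 1.87e-05), and 4.12 in their cytosolic mRNA, or 17.4-fold (adjusted p = 3.77e-05). In Foxp3- cells it was 6.39, or 84-fold (adjusted p = 1.64e-06), and 5.21, or 37.1-fold (adjusted p = 9.04e-06). The rise in Foxp3+ cells minus that in Foxp3- cells was -1.78 for polysome-associated and -1.09 for cytosolic mRNA, and neither difference between subsets passed (adjusted p = 0.109 and 0.362 in the same order).

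Tfrc (Entrez Gene 22042, chromosome 16), the receptor for iron-loaded transferrin, changed on the same scale. Activated Foxp3+ cells had 9.33 and 10.35 in polysome-associated and 8.11 and 9.90 in cytosolic mRNA, and activated Foxp3- cells had 10.68 and 11.08 and then 9.46 and 10.34. Ex vivo, Foxp3+ cells had 4.55 and 4.77 in polysome-associated and 4.97 and 4.98 in cytosolic mRNA, and Foxp3- cells had 5.16 and 4.98 and then 5.04 and 4.84. The ex vivo arrays lay close to the array medians, and 4 of the 16 arrays, all ex vivo, were below them, so that the size of the fold changes rests on a low starting level. Tfrc was higher after activation by 5.18 ± 0.52 (SE), 36.2-fold, in polysome-associated mRNA of Foxp3+ cells (adjusted p = 6.6e-05) and by 5.81, 56.2-fold, in that of Foxp3- cells (adjusted p = 1.73e-05). The cytosolic differences were 4.03 and 4.96, with adjusted p-values of 0.000306 in Foxp3+ and 8.84e-05 in Foxp3- cells.

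Erythroid precursors also carry much transferrin receptor, and the level of their markers is therefore given beside these values. Of 5 erythroid markers measured, at most 2 were over the array median on both arrays of any group, and none was higher after activation in any of the 4 comparisons. The 7 measured B cell markers, of which at most 2 were over the array median on both arrays of any group, had a summed intensity of 7.13 to 8.14 on the log2 scale in activated Foxp3+ cells and 6.48 to 7.12 in activated Foxp3- cells, against 8.83 to 9.29 in ex vivo Foxp3+ and 8.59 to 9.18 in ex vivo Foxp3- cells. In cytosolic mRNA of Foxp3+ cells 2 of them were nonetheless called higher and 1 lower. The 8 myeloid markers had 8.45 to 8.79 in activated Foxp3+ and 7.07 to 8.01 in activated Foxp3- cells, against 7.63 to 7.91 in ex vivo Foxp3+ and 7.48 to 8.04 in ex vivo Foxp3- cells, so that their sum was higher after activation in Foxp3+ cells. In each fraction of Foxp3+ cells 2 of the 8 were called higher, while 1 was lower in cytosolic and 2 in polysome-associated mRNA, and in each fraction of Foxp3- cells 2 were lower and none higher. The 4 plasma cell markers, some of which activated T cells also express, had 9.73 to 10.92 in activated Foxp3+ and 10.50 to 10.89 in activated Foxp3- cells, against 9.30 to 9.68 and 9.05 to 9.36 ex vivo, with 1 called higher in each of the 4 comparisons. Over all genes 14.7% were called higher and 14.6% lower in polysome-associated and 16.9% and 14.4% in cytosolic mRNA of Foxp3+ cells. In Foxp3- cells the shares were 14.1% and 16.4%, and 13.6% and 12.5%. The part of these markers in the activation differences was not tested. The globin genes Hba-a1 and Hbb-b1 were not analysed here.

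The start region of Tfrc is shown because E-boxes are the known binding sequence of MYC with MAX and because Tfrc followed Myc most closely among the 8 genes. RefSeq windows of 250 bases before and 50 bases after an annotated start site were at hand for 4 of the 8 genes, Tfrc, Slc3a2, Slc7a1 and Slc38a2, 6 windows in all, and the search covered both strands for CACGTG, the canonical E-box, for CACGCG, a variant E-box, and for TGATGNAAT, a form of the element through which ATF4 responds to amino acid shortage. No match overlapped another motif. CACGTG was in 7.15%, CACGCG in 9.27% and TGATGNAAT in 0.965% of all 32851 mouse windows of the same length. CACGCG occurred in both Tfrc windows, 117 bases before the start site in the one printed here and, as CGCGTG, 43 bases before the start site of the other, and no other match was found in the 6 windows. A match is a description of the letters in the window and no evidence of binding. The Tfrc window lies at chr16:32608646-32608945 on the plus strand of GRCm38.p6, with the match in capitals. The windows of Slc3a2, Slc7a1 and Slc38a2 hold none of the motifs. That of Slc3a2, which was called lower in most activation comparisons, is given beside that of Tfrc, from chr19:8713848-8714147 on the minus strand. A link between motif and direction of change was not tested.
Tfrc promoter: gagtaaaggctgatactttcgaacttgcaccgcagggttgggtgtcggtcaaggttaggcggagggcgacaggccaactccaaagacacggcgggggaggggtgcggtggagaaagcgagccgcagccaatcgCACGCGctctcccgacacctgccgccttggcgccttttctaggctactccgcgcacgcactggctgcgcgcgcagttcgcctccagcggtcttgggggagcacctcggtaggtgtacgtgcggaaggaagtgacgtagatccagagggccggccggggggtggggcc
Slc3a2 promoter: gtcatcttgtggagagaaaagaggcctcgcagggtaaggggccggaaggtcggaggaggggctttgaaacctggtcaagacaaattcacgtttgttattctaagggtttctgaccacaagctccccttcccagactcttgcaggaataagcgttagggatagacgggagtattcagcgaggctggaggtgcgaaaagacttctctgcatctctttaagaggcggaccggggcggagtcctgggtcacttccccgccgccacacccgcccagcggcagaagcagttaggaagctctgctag

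Slc38a1 (Entrez Gene 105727, chromosome 15) was the only amino acid carrier of the 8 genes that was higher in all 4 activation comparisons. Its levels were 9.36 and 9.26 in polysome-associated and 10.36 and 9.70 in cytosolic mRNA of activated Foxp3+ cells, and 9.55 and 9.57 and then 9.04 and 9.04 in activated Foxp3- cells. Ex vivo they were 7.61 and 7.86 in polysome-associated and 7.18 and 7.01 in cytosolic mRNA of Foxp3+ cells, and 8.12 and 8.14 and then 7.41 and 7.73 in Foxp3- cells. No activated array overlapped an ex vivo array. The gain was greatest in cytosolic mRNA of Foxp3+ cells, 2.94 ± 0.23 (SE) or 7.66-fold (adjusted p = 2.24e-05), and 2.7- to 2.98-fold elsewhere, with 1.57 in their polysome-associated mRNA (adjusted p = 0.000746), 1.43 in that of Foxp3- cells (adjusted p = 9e-04) and 1.47 in the cytosolic mRNA of Foxp3- cells (adjusted p = 0.00115). All 12 activation calls of Myc, Tfrc and Slc38a1 held under each of 9 other settings.

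Slc38a2 (Entrez Gene 67760), the paralogue next to Slc38a1 on chromosome 15, did not pass the test in any of the 4. Its levels ranged over 6.30 to 8.63 on activated arrays and 6.21 to 7.71 on ex vivo arrays, which overlap. The differences were 1.07 and 0.02 in polysome-associated and cytosolic mRNA of Foxp3+ cells and 1.06 and -0.14 in those of Foxp3- cells (SE 0.51, adjusted p between 0.141 and 0.984). Over the 16 arrays the paralogues correlated at 0.35.

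The 2 chains of CD98 went apart. Slc3a2 (Entrez Gene 17254, chromosome 19), the heavy chain that carries its light-chain partners to the surface, had 9.22 and 9.72 in polysome-associated and 9.05 and 9.81 in cytosolic mRNA of activated Foxp3+ cells, and 9.69 and 8.79 and then 9.69 and 9.27 in activated Foxp3- cells. Ex vivo it had 11.04 and 10.91 in polysome-associated and 10.60 and 10.54 in cytosolic mRNA of Foxp3+ cells, and 10.50 and 10.63 and then 10.23 and 10.13 in Foxp3- cells. All activated arrays were below all ex vivo arrays. Within single comparisons 29.5% of all genes had both activated arrays below both ex vivo arrays in the polysome fraction and 30% in cytosolic mRNA of Foxp3+ cells, and 35.4% and 30.9% in those of Foxp3- cells. Slc3a2 was 2.84-fold lower after activation in polysome-associated mRNA of Foxp3+ cells (-1.5 ± 0.33, adjusted p = 0.00658), 2.2-fold lower in their cytosolic mRNA (-1.14, adjusted p = 0.024) and 2.51-fold lower in polysome-associated mRNA of Foxp3- cells (-1.33, adjusted p = 0.0108). The cytosolic difference in Foxp3- cells, -0.70, did not pass (adjusted p = 0.145). The call in polysome-associated mRNA of Foxp3+ cells held under all 9 other settings. That in their cytosolic mRNA was lost under 5, among them cyclic loess (-0.53, adjusted p = 0.202) and leaving out the activated array at 9.05 (-0.76, adjusted p = 0.15), and that in Foxp3- cells under 3, among them leaving out the activated array at 8.79 (-0.88, adjusted p = 0.0942).

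Slc7a5 (Entrez Gene 20539, chromosome 8), the light chain that forms the path for leucine through the membrane, was higher after activation only in polysome-associated mRNA of Foxp3+ cells, by 1.52 ± 0.48 (SE) or 2.86-fold (adjusted p = 0.0345). There the activated arrays had 9.87 and 9.49 and the ex vivo arrays 8.84 and 7.49, so that the ex vivo duplicates were 1.35 apart. Without the ex vivo Foxp3+ array at 7.49 the difference was 0.84 (adjusted p = 0.271). In cytosolic mRNA of Foxp3+ cells and in polysome-associated and cytosolic mRNA of Foxp3- cells the differences were 0.49, -0.18 and 1.10, with adjusted p-values of 0.464, 0.814 and 0.114. Slc7a5 and Slc3a2 correlated at -0.52 over the 16 arrays.

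Slc1a5 (Entrez Gene 20514, chromosome 7), a carrier through which T cells take up glutamine, was lower in 1 comparison. Polysome-associated mRNA of activated Foxp3- cells had 6.62 and 7.68, against 8.22 and 8.28 in ex vivo Foxp3- cells, a 2.14-fold decrease (-1.10 ± 0.33, adjusted p = 0.0249). Without the activated array at 6.62 the difference was -0.57 (adjusted p = 0.202). In the other 3 comparisons Slc1a5 differed by -0.28 to -0.43 and did not pass.

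Slc7a1 (Entrez Gene 11987, chromosome 5), the cationic carrier, had every activated array above every ex vivo array of the same subset and fraction, but it did not pass in any comparison. Of all genes, 35.6% and 38.3% had both activated arrays above both ex vivo arrays in polysome-associated and cytosolic mRNA of Foxp3+ cells, and 36.3% and 39.5% in those of Foxp3- cells. In activated Foxp3+ cells it had 8.77 and 7.68 in polysome-associated and 8.62 and 6.16 in cytosolic mRNA, and in activated Foxp3- cells 7.96 and 8.96 and then 9.53 and 8.59. Ex vivo it had 6.23 and 6.46 in polysome-associated and 5.66 and 5.69 in cytosolic mRNA of Foxp3+ cells, and 7.53 and 7.70 and then 7.0 and 7.16 in Foxp3- cells. The 2.46 between the cytosolic duplicates of activated Foxp3+ cells was the widest gap of any of the 8 genes in any group. The differences of 1.88, 1.72, 0.85 and 1.98, in Foxp3+ polysome-associated and cytosolic and Foxp3- polysome-associated and cytosolic mRNA, had an SE of 0.67 and adjusted p-values of 0.0566, 0.074, 0.382 and 0.0512. With 1 array left out the cytosolic difference in Foxp3+ cells lay between 0.49 and 2.95, the latter without the activated array at 6.16. With array weights or cyclic loess Slc7a1 passed in both fractions of Foxp3+ cells and in cytosolic mRNA of Foxp3- cells. With only the compared arrays in the fit it did not pass in either fraction of Foxp3+ cells. Under the same setting it passed in cytosolic mRNA of Foxp3- cells (adjusted p = 0.0251).

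**Figure D2:**
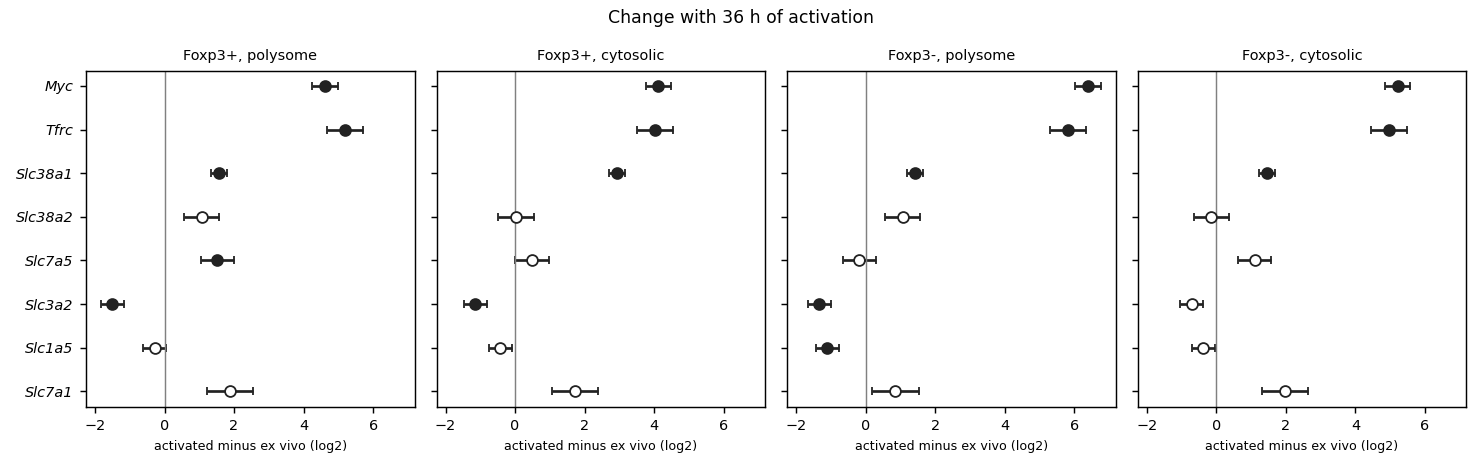
Difference of activated minus ex vivo level (log2, with SE) for the 8 genes in each subset and RNA fraction, 1 panel per comparison, with filled points for genes that passed the limma test at an adjusted p-value below 0.05. Myc lies between 4.12 and 6.39, Tfrc between 4.03 and 5.81 and Slc38a1 between 1.43 and 2.94, whereas Slc3a2 is below 0 in all panels.

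The next question was whether Foxp3+ and Foxp3- cells differed. After activation Myc was lower in Foxp3+ cells than in Foxp3- cells in both fractions, Slc1a5 was higher in Foxp3+ cells in polysome-associated mRNA, and in cytosolic mRNA Slc38a1 was higher and Slc7a1 lower in Foxp3+ cells. At the threshold of 0.15 that the methods set for this comparison, 2 of the 8 genes were called in polysome-associated mRNA, where 32.4% of all genes were called, and 3 in cytosolic mRNA, where 26% were.

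Myc was 2.07-fold lower in activated Foxp3+ cells in polysome-associated mRNA (-1.05 ± 0.37, adjusted p = 0.0777) and 2.89-fold lower in cytosolic mRNA (-1.53, adjusted p = 0.0251). In each fraction both Foxp3+ arrays were below both Foxp3- arrays, a separation that was not counted over all genes. Both calls were lost with only the 4 arrays of the compared groups in the fit (adjusted p = 0.293 and 0.245) and after cyclic loess (0.181 and 0.151), and with array weights the polysome call was lost (0.275) and the cytosolic one lay at the threshold, just inside it (0.15). Leaving out the lower Foxp3+ polysome array brought the polysome difference to -0.57 (adjusted p = 0.341).

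Slc1a5 had 7.78 and 8.43 in polysome-associated mRNA of activated Foxp3+ cells, against 6.62 and 7.68 in activated Foxp3- cells, a 1.94-fold difference (0.95 ± 0.33, adjusted p = 0.0698). Without the Foxp3- array at 6.62 the difference was 0.42. Slc38a1 was 1.99-fold higher in cytosolic mRNA of activated Foxp3+ cells (0.99 ± 0.23, adjusted p = 0.0223), with 10.36 and 9.70 against 9.04 on both arrays of activated Foxp3- cells. Slc7a1 was lower by 1.67 on the log2 scale in the same comparison (adjusted p = 0.13), yet its arrays overlapped, with 8.62 and 6.16 in Foxp3+ cells and 9.53 and 8.59 in Foxp3- cells, and without the array at 6.16 the difference was -0.44 (adjusted p = 0.647). The calls of Slc1a5, Slc38a1 and Slc7a1 were all lost with only the compared arrays in the fit and with array weights.

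Tfrc was numerically lower in activated Foxp3+ cells, by -1.04 in polysome-associated mRNA (adjusted p = 0.188) and -0.90 in cytosolic mRNA (adjusted p = 0.283). With 1 array left out the cytosolic difference lay between -1.79, without the Foxp3+ array at 9.90, and 0. Slc7a5, Slc3a2 and Slc38a2 differed between activated subsets by -0.75 to 0.45 and did not pass in either fraction, nor did Slc38a1 (-0.25) and Slc7a1 (-0.23) in polysome-associated mRNA or Slc1a5 (-0.33) in cytosolic mRNA.

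Markers of other cells differed between the activated subsets as well, and their part in these values was not tested. The summed intensity of the 8 myeloid markers was 8.65 and 8.68 on the log2 scale in polysome-associated mRNA of activated Foxp3+ cells, against 7.15 and 8.01 in that of activated Foxp3- cells, and in cytosolic mRNA it was 8.45 and 8.79 against 7.07 and 7.35. That of the 7 B cell markers was 7.13 and 7.95 on the polysome arrays of activated Foxp3+ cells, against 6.48 and 6.56 on those of activated Foxp3- cells. These sums were thus higher in activated Foxp3+ cells. Of the 8 myeloid markers 2 were called higher in polysome-associated and 1 in cytosolic mRNA, and of the 7 B cell markers 2 and 3, with none lower. Over all genes 18.7% and 13.8% were called higher. None of the 5 erythroid markers was over the array median on both arrays of any activated group. Of these 5, Epor, Slc4a1 and Ank1 were called higher in polysome-associated mRNA of activated Foxp3+ cells, where 18.7% of all genes were. They were named after their values were seen.

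Ex vivo, with the same threshold of 0.15, none of the 8 genes passed between Foxp3+ and Foxp3- cells, where 3.87% of all genes were called in polysome-associated and 4.64% in cytosolic mRNA. At an unadjusted p-value below 0.05 there were 1997 and 2044 genes in the same order. Slc7a1 differed most of the 8 genes, with 6.23 and 6.46 in polysome-associated mRNA of Foxp3+ cells against 7.53 and 7.70 in Foxp3- cells, and 5.66 and 5.69 in cytosolic mRNA of Foxp3+ cells against 7.0 and 7.16 in Foxp3- cells. The duplicates lay close together and the groups were well apart, which was not counted over all genes. The spread pooled over all 16 arrays, which the activated arrays widen, gave differences of -1.27 with a 95% confidence interval from -2.81 to 0.28 (adjusted p = 0.511) and of -1.41 from -2.96 to 0.14 (adjusted p = 0.439). With only the compared arrays in the fit, Slc7a1 was lower in Foxp3+ cells in both fractions (adjusted p = 0.0245 and 0.00543), and likewise among ex vivo arrays with the array run as a block (0.00333 and 0.00211). Each of these fits called several times as many of all genes between ex vivo subsets as the main fit, with counts given below. The run was set by the array numbers in the sample labels, 1 to 4 and 5 to 8. Each run held 1 array of every ex vivo group, and what the split stands for is not stated.

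The other genes were closer between subsets ex vivo. Slc7a5 had 8.84 and 7.49 in polysome-associated mRNA of Foxp3+ cells against 9.38 and 9.44 in Foxp3- cells (-1.25, adjusted p = 0.293), which passed with array weights (adjusted p = 0.0331) and with the run block (0.063), and lay between -1.92 and -0.58 with 1 array left out. Myc had 6.74 and 6.69 in polysome-associated mRNA of Foxp3+ cells against 5.86 and 6.10 in Foxp3- cells. This difference of 0.73 (adjusted p = 0.485) was opposite in direction to that after activation. In cytosolic mRNA the difference was -0.44 (adjusted p = 0.728), in the direction seen after activation. In polysome-associated mRNA Myc passed 0.15 with only the compared arrays in the fit (adjusted p = 0.0708), with array weights (0.0793) and with the run block (0.0719). All these settings called several times as many of all genes between ex vivo subsets as the main fit did.

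**Figure D3:**
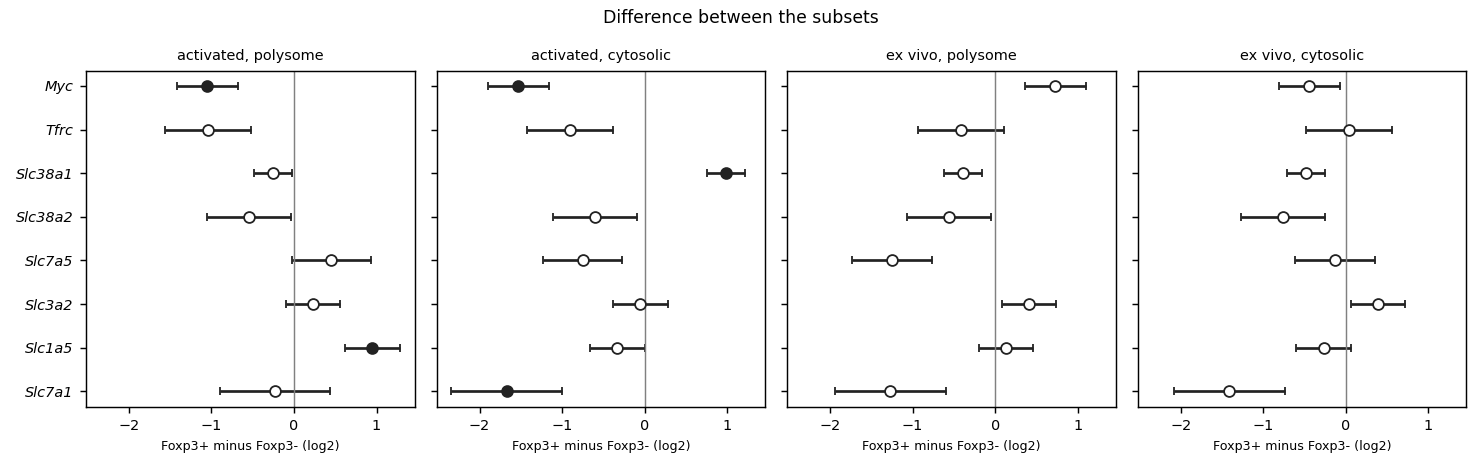
Difference of Foxp3+ minus Foxp3- level (log2, with SE) for the 8 genes in activated and ex vivo cells and in each RNA fraction, 1 panel per comparison, with filled points for genes that passed at an adjusted p-value below 0.15. Myc lies at -1.05 and -1.53 in activated cells, and no point is filled in the ex vivo panels, where Slc7a1 is lowest at -1.27 and -1.41.

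The order of the group means shows where neighbouring groups were separate, which was not counted over all genes. For Myc the order from the top was polysome-associated and then cytosolic mRNA of activated Foxp3- cells, and polysome-associated and then cytosolic mRNA of activated Foxp3+ cells, with means of 12.37 ± 0.05, 11.81 ± 0.34, 11.32 ± 0.68 and 10.28 ± 0.65 (SD, n = 2 each). The second and the third of these overlapped in their arrays, and the step from the fourth to the highest ex vivo group was 3.57. The order of the activated groups was the same for Tfrc, with means of 10.88 ± 0.28, 9.90 ± 0.63, 9.84 ± 0.73 and 9.0 ± 1.26 (SD, n = 2 each), of which only the first was free of overlap with the next, and a step of 3.94 down to the ex vivo groups. Slc38a1 had another order, with cytosolic mRNA of activated Foxp3+ cells at the top (10.03 ± 0.47), then polysome-associated mRNA of activated Foxp3- cells (9.56 ± 0.01), polysome-associated mRNA of activated Foxp3+ cells (9.31 ± 0.07) and cytosolic mRNA of activated Foxp3- cells (9.04 on both arrays), none overlapping the next. Slc3a2 ran the other way round, with all ex vivo groups on top, the polysome-associated mRNA of Foxp3+ cells first (10.97 ± 0.09), and its 4 activated groups overlapped each other between means of 9.48 and 9.24. Slc7a1 was lowest in the cytosolic (5.67 ± 0.02) and next in the polysome-associated mRNA (6.35 ± 0.16) of ex vivo Foxp3+ cells, which did not overlap each other or the next group, ex vivo Foxp3- cytosolic mRNA (7.08 ± 0.11). For Slc7a5, Slc1a5 and Slc38a2 nearly all neighbouring groups overlapped.

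The study's design also asks how much of each mRNA was on polysomes. In none of the 4 cell populations did any of the 8 genes differ between polysome-associated and cytosolic mRNA at an adjusted p-value below 0.05, where 4.66% of all genes were called in activated Foxp3+ cells, 3.88% in activated Foxp3-, 0.0364% in ex vivo Foxp3+ and 0.0607% in ex vivo Foxp3- cells. The smallest adjusted p-values were those of Slc38a1 (-0.72, adjusted p = 0.111) and Myc (1.04, adjusted p = 0.142), both in activated Foxp3+ cells, where Tfrc had 0.84, Slc38a2 0.90 and Slc7a1 0.84. In activated Foxp3- cells Tfrc had 0.98, Slc38a2 0.86 and Slc1a5 -0.78, and ex vivo all 8 genes were between -0.62 and 0.67. Since the arrays were normalized to each other, these values give polysome association relative to that of other genes.

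Whether polysome association itself differed between subsets was tested as the difference of these differences, polysome minus cytosolic in Foxp3+ cells minus the same in Foxp3- cells. In activated cells Slc38a1 was the 1 gene of the 8 that passed the threshold of 0.15, with -1.24 ± 0.33 (SE, 95% confidence interval -2.01 to -0.48, adjusted p = 0.0826), where 7.48% of all genes were called. Its polysome-associated level was below its cytosolic level in activated Foxp3+ cells, by -0.72, and above it in activated Foxp3- cells, by 0.52. The more abundant cytosolic Slc38a1 mRNA of activated Foxp3+ cells was thus not matched on polysomes, where the subsets differed by only -0.25 (adjusted p = 0.475). The call was lost with only the 8 activated arrays in the fit (adjusted p = 0.501) and with array weights (0.457).

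The other genes did not pass this test in activated cells. Slc1a5 had 1.29 (adjusted p = 0.187), Slc7a1 1.44 (0.496), Slc7a5 1.20 (0.413) and Myc 0.48. In ex vivo cells, where the methods' threshold is 0.3, 0% of all genes were called and 193 had an unadjusted p-value below 0.05, with 0.08 for Slc38a1 and 1.17 for Myc. The change of polysome association with activation was not called for any of the 8 genes, where 0.279% of all genes were called in Foxp3+ and 0.158% in Foxp3- cells. It was -1.36 for Slc38a1 in Foxp3+ cells (adjusted p = 0.122) and -0.03 in Foxp3- cells.

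Nor did the rise with activation differ between subsets for any of the 8 genes at a threshold of 0.05, where 2.58% of all genes were called in polysome-associated and 2.07% in cytosolic mRNA. The cytosolic rise of Slc38a1 was greater in Foxp3+ cells by 1.47 (adjusted p = 0.0506).

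**Figure D4:**
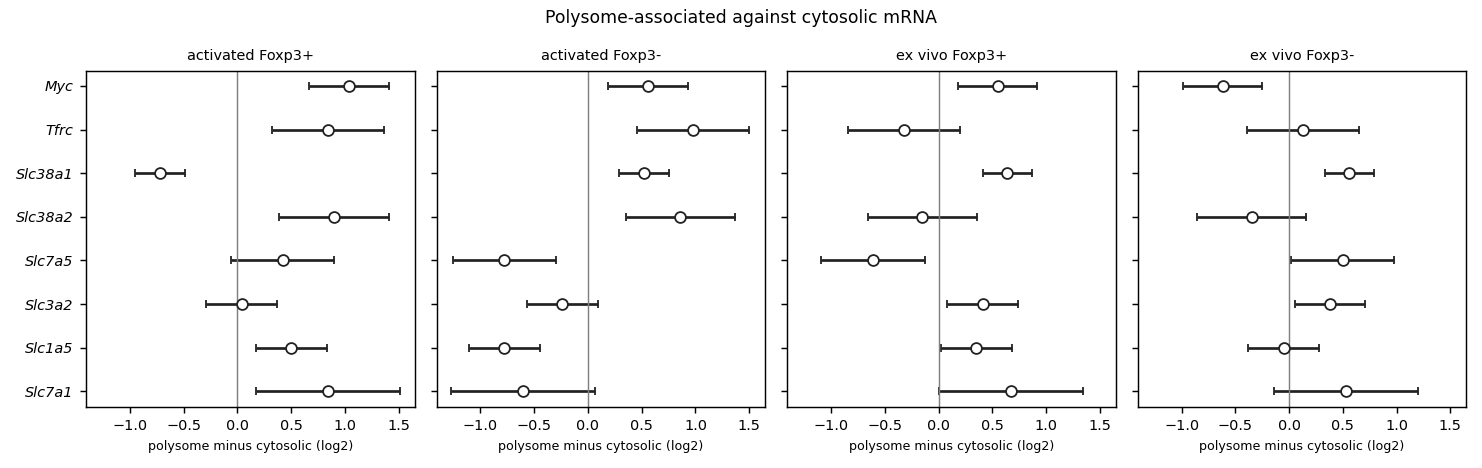
Difference of polysome-associated minus cytosolic level (log2, with SE) for the 8 genes in each cell population, 1 panel per population, with filled points for genes that passed at an adjusted p-value below 0.05. No point is filled, and Slc38a1 lies at -0.72 in activated Foxp3+ cells and at 0.52 in activated Foxp3- cells.

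The genes whose levels were most like those of each of the 8 were taken from 8197 genes whose group means varied with an SD of at least 0.5, by Pearson's correlation over the 16 arrays. The arrays share their groups, so these coefficients are descriptions. Myc was followed most closely by Chst2, a sulfotransferase, at 0.98 and by Bcl2l1, which encodes the survival factor BCL-XL, at 0.977, and 77 genes exceeded 0.95. For Tfrc the closest were Ywhaz, a 14-3-3 protein, at 0.982 and Ppp1r15b, a regulator of eIF2α phosphatase, at 0.981, with 70 genes over 0.95. Such patterns were thus shared by many genes that were high in all activated groups.

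Among themselves Myc and Tfrc correlated at 0.96, each of them with Slc38a1 at 0.86, Myc with Slc7a1 at 0.75 and Myc with Slc3a2 at -0.88. Slc3a2 was most like the lysosomal cathepsin A gene Ctsa (0.948) and the interferon-induced Ifi35 (0.944), and Slc38a1 was most like Cr1l, a complement regulator (0.946), and Sar1a, a GTPase of vesicle budding (0.939). The closest genes of the others were Mecr and Alyref for Slc7a1 (0.903 and 0.893), Tango2 and Vps11 for Slc1a5 (0.884 and 0.877), Clint1 and Pdxdc1 for Slc38a2 (0.853 and 0.846) and Rnf125 and Ubap2 for Slc7a5 (0.792 and 0.787).

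Genes that MYC is known to activate were mostly higher after activation where they changed at all. Of 42 listed targets 33 were measured. In polysome-associated mRNA of Foxp3+ cells 15 were higher and 1 lower, in their cytosolic mRNA 12 were higher and 6 lower, in polysome-associated mRNA of Foxp3- cells 16 were higher and 1 lower, and in their cytosolic mRNA 16 were higher and none lower, and 10 were higher in all 4. Over all genes the shares called higher and lower were 14.7% and 14.6%, 16.9% and 14.4%, 14.1% and 16.4%, and 13.6% and 12.5% in the same order, and 4.5% were higher in all 4. The largest mean difference was that of Nop58, a core protein of the particles that methylate ribosomal RNA, which was 5.42 in Foxp3+ and 7.08 in Foxp3- cells in polysome-associated mRNA and 6.12 and 5.71 in cytosolic mRNA. Its ex vivo group means, 3.10 to 3.83, were below the array medians, so that the size of these differences rests on a level not shown to be above background. Ncl, the nucleolar protein nucleolin, rose by 3.11 to 4.95, Hspe1, a mitochondrial chaperonin, by 3.28 to 4.69 and Odc1, the first enzyme of polyamine synthesis, by 2.62 to 3.30.

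Between activated subsets most of the targets that differed were lower in Foxp3+ cells, 14 lower and 1 higher in polysome-associated mRNA and 16 lower and 1 higher in cytosolic mRNA, of 33 measured. Over all genes 18.7% were called higher and 13.7% lower in polysome-associated mRNA, and 13.8% higher and 12.2% lower in cytosolic mRNA. The median difference of the targets was -0.70 and -0.78 in these fractions, beside 0.20 and 0.13 over all genes. Eif4e, the cap-binding translation factor, was lower by 3.20 on the log2 scale in polysome-associated mRNA of Foxp3+ cells (adjusted p = 0.000527), and Cdc25a, a phosphatase of cell cycle entry, had -1.97 (adjusted p = 0.00237). Of Nop58 and Ncl, the differences were -1.81 and -1.61 in polysome-associated mRNA and -0.08 and -0.17 in cytosolic mRNA, where neither passed. With only the compared arrays in the fit 6 targets were called in polysome-associated and 2 in cytosolic mRNA, with array weights 12 and 9, and after cyclic loess 15 and 13.

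Enzymes that use glutamine or make serine and asparagine moved in both directions. Of 26 listed genes 21 were measured, and 5 were higher and 2 lower in polysome-associated mRNA of activated Foxp3+ cells, 2 higher and 2 lower in their cytosolic mRNA, 7 higher and 2 lower in polysome-associated mRNA of Foxp3- cells and 4 higher and 2 lower in their cytosolic mRNA. The shares called, 33.3%, 19%, 42.9% and 28.6%, stood beside 29.3%, 31.4%, 30.6% and 26.1% of all genes. Got1, the cytosolic aspartate aminotransferase, was higher by 4.80 in polysome-associated mRNA of Foxp3+ cells and by 3.61 in that of Foxp3- cells, and Psat1, a serine synthesis enzyme, by 1.95 and 4.15. Phgdh, which catalyses the step of serine synthesis before that of Psat1, was instead lower in all 4 comparisons, with -3.28 and -3.79 in polysome-associated and cytosolic mRNA of Foxp3+ cells and -4.09 and -4.27 in those of Foxp3- cells. Between activated subsets 6 of these genes were lower and 1 higher in Foxp3+ cells in polysome-associated mRNA and 10 lower and 1 higher in cytosolic mRNA, or 33.3% and 52.4% called beside 32.4% and 26% of all genes. Ppat, the first enzyme of purine synthesis and one of 2 genes that also stand among the MYC targets, had -2.67 and -2.87 there, and Glud1, glutamate dehydrogenase, -2.15 and -2.37. With only the compared arrays in the fit 4 and 3 genes of this list were called in the same comparisons, with array weights 4 and 6, and after cyclic loess 5 and 7. The list median, -0.74 and -1.06 in the main fit, was -0.65 and -0.64 after cyclic loess and -0.87 and -1.21 after median centring.

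Other amino acid transporters showed no common direction with activation. Of 40 listed 35 were measured, and 6 were higher and 5 lower in polysome-associated mRNA of Foxp3+ cells, 7 and 4 in their cytosolic mRNA, 3 and 4 in polysome-associated mRNA of Foxp3- cells and 3 and 3 in their cytosolic mRNA. These shares, 31.4%, 31.4%, 20% and 17.1%, were near or below those of all genes, 29.3%, 31.4%, 30.6% and 26.1%. The glutamate transporter Slc1a2 was higher in all 4, by 1.09 to 1.92, and the relatives Slc38a7 and Slc38a9, amino acid carriers of lysosomes, were lower in all 4, with -1.08 to -1.68 and -1.43 to -1.93. Between activated subsets 8 of the 35 were higher and 1 lower in polysome-associated mRNA of Foxp3+ cells, and 5 higher and 1 lower in cytosolic mRNA, or 25.7% and 17.1% called beside 32.4% and 26% of all genes. Slc38a10 and Slc43a2 were among those higher in polysome-associated mRNA, with 1.06 and 1.34.

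Few other genes of iron handling were higher after activation. Of 32 listed 28 were measured, and 2 were higher and 6 lower in polysome-associated mRNA of Foxp3+ cells, 3 and 3 in their cytosolic mRNA, 1 and 8 in polysome-associated mRNA of Foxp3- cells and 1 and 3 in their cytosolic mRNA. These shares, 28.6%, 21.4%, 32.1% and 14.3%, were near or below those of all genes, 29.3%, 31.4%, 30.6% and 26.1%. Slc39a8, a carrier of zinc, iron and other metals, was higher in polysome-associated mRNA by 3.86 in Foxp3+ and by 2.92 in Foxp3- cells, with ex vivo means of 3.42 and 3.41 that were below the array medians. Fth1, the heavy chain of the iron store ferritin, was lower, with -1.79 and -2.70 in the same comparisons, and Slc25a28, the mitochondrial iron carrier mitoferrin 2, had -1.95 and -2.05. Hmox1, the heme-degrading oxygenase, was higher in activated Foxp3+ than in activated Foxp3- cells by 1.11 in polysome-associated and 1.32 in cytosolic mRNA, and Trf, transferrin itself, by 1.88 in polysome-associated mRNA.

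**Figure D5:**
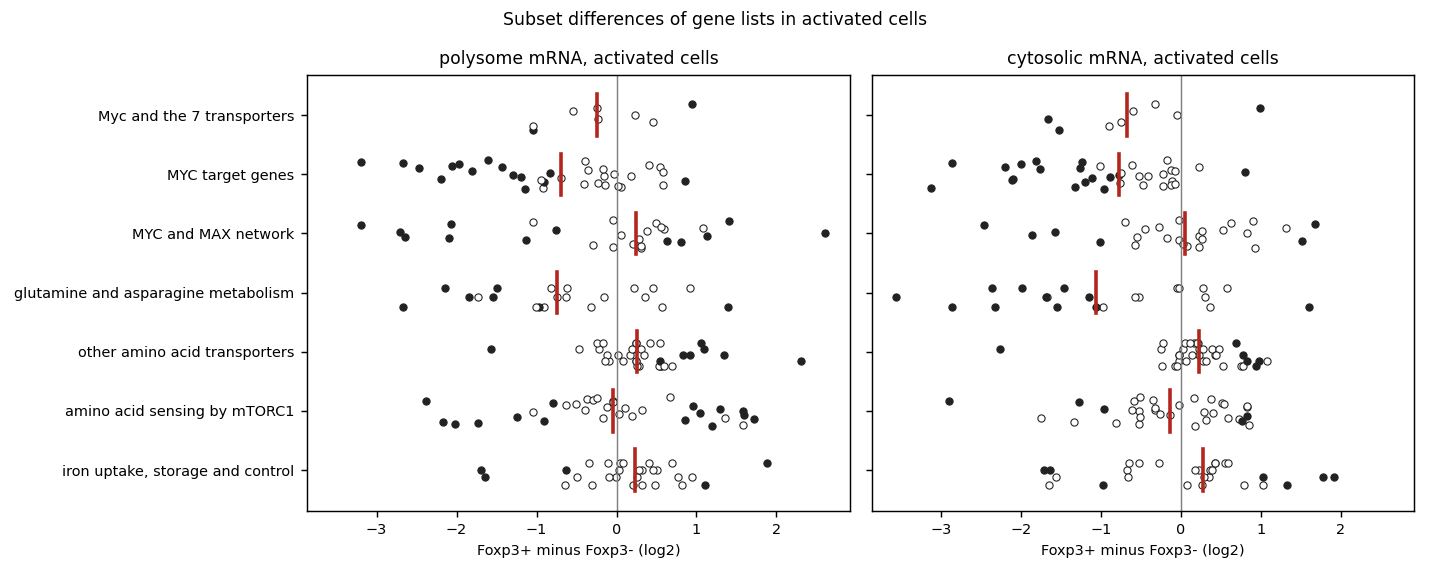
Difference of activated Foxp3+ minus activated Foxp3- level (log2) for each measured gene of the 7 lists, polysome-associated mRNA in the left and cytosolic mRNA in the right panel. Filled points passed at an adjusted p-value below 0.15, and red bars are list medians, which are -0.70 and -0.78 for the 33 MYC targets and -0.74 and -1.06 for the 21 genes of glutamine and asparagine metabolism.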

How the data were processed

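Whole-transcriptome amplification was applied to each RNA preparation before hybridisation to 1 Affymetrix array. The authors summarised and normalized the 16 arrays by robust multiarray averaging (rma, affy package for R), with probes regrouped so that each Entrez gene has 1 probe set. The deposited values are log2 intensities and were used as deposited, between 1.752 and 14.56 with no missing value. The 64 control features were dropped, and of the other 16475, each a gene, 15780 have a symbol. Depth does not apply to arrays, and 2 arrays per group limit the precision.

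Groups came from the sample labels. A linear model with 8 group means and 8 residual degrees of freedom was fitted to all genes with limma 3.58.1 in R 4.3.3 (lmFit, eBayes), and p-values were adjusted by Benjamini-Hochberg over 16475 genes in each of 18 contrasts. Thresholds of 0.15 for subset comparisons and differential translation of activated cells and of 0.3 for differential translation ex vivo follow the methods. The 0.15 was also used for ex vivo subset comparisons, where the choice is not the methods', and 0.05 elsewhere. A call refers to these thresholds. The study's own test of translation, anota with a random variance model, regresses polysome on cytosolic values of paired samples and was not run, since the labels do not pair the arrays. Whether duplicates were separate cultures beyond the methods' word for them is not given, and p-values measure the spread between these arrays.

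Alternatives were a fit of the compared groups only, array weights, genes above the median mean level, median centring, cyclic loess and leaving out each array. A further one, in ex vivo cells, was a block for the array run (arrays 1 to 4 and 5 to 8 by label number). The fit was tested on simulated data. Named genes were the 8 members, the 2 genes most correlated with each (leaving out predicted genes and odorant or vomeronasal receptors), Foxp3, up to 4 genes of each list with the largest mean activation difference among those called and up to 2 with the smallest adjusted p in the activated polysome subset comparison. Marker genes named for erythroid cells were chosen after their values were seen. The members and lists were chosen with earlier results of these data known. Promoter windows are those of RefSeq on GRCm38.p6. Python 3.11.15 with pandas 2.3.3 and matplotlib 3.10.9 was used for sequences and plots.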

Additional observations from a re-analysis of the deposited data

Results flagged for a closer look

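Slc38a1 stood out because its polysome association relative to cytosolic mRNA differed between activated subsets by a test of that difference, -1.24 (Foxp3+ minus Foxp3-, adjusted p = 0.0826 at the threshold of 0.15). In activated Foxp3+ cells it had 9.36 and 9.26 in polysome-associated against 10.36 and 9.70 in cytosolic mRNA, and in activated Foxp3- cells 9.55 and 9.57 against 9.04 and 9.04, so that the fractions were in opposite order. The call was lost with only the 8 activated arrays in the fit (adjusted p = 0.501) and with array weights (0.457). Ex vivo the same quantity was 0.08. The array names place the activated subsets in separate series, whose part in this value cannot be told apart from the subset.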

How the results depend on the processing

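No paired analysis was run, because the labels number the arrays 1 to 16 and do not state which arrays share a preparation. Whether arrays with neighbouring numbers do so is not given. The tests between fractions and of differential translation thus leave out any pairing of cytosolic with polysome arrays, and their SEs and p-values could differ in a paired test. The array run, set by these numbers, served as a block for the ex vivo arrays only. Of the values of single members under alternatives, 1438 kept their side of the threshold, 39 were no longer called, 51 were newly called and 0 turned their sign while called. Of the 1438, 82 had the other sign and were called in neither fit. With only the compared groups in the fit, members called were 3 in activation of Foxp3- polysome-associated mRNA (5 with all arrays), 0 in the activated subset comparison of polysome-associated (2) and 0 of cytosolic mRNA (3), 3 in each ex vivo subset comparison (0) and 0 in differential translation of activated cells (1). Genes called were then 2254 (4825 with all arrays) and 3056 (5165) in activation of Foxp3+ polysome-associated and cytosolic mRNA, 855 (5338) and 490 (4279) between activated subsets, 3436 (638) and 5185 (765) between ex vivo subsets, 0 (768), 0 (639) and 224 (10) between fractions of activated Foxp3+, activated Foxp3- and ex vivo Foxp3- cells, 0 (1232) and 1 (0) in differential translation of activated and ex vivo cells, 159 (425) in the subset difference of activation in polysome-associated mRNA, and 1 (46) and 14 (26) in the translation shift of Foxp3+ and Foxp3- cells.

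With array weights, members called were 0 in polysome-associated and 1 in cytosolic mRNA between activated subsets, 4 in each fraction between ex vivo subsets, 1 between fractions of ex vivo Foxp3- cells and 0 in differential translation of activated cells. Genes called were 1996 and 1368 between activated subsets, 4103 and 5326 between ex vivo subsets, 0, 238, 142 (6 without weights) and 665 between fractions of activated Foxp3+, activated Foxp3-, ex vivo Foxp3+ and ex vivo Foxp3- cells, 126 and 2 in differential translation, and 0 and 100 in the translation shift of Foxp3+ and Foxp3- cells. Restricted to genes above the median mean level, so that fewer genes were tested, counts were 3327 in activation of Foxp3+ cytosolic mRNA, 3144 and 2801 between activated subsets, 1 and 3 between fractions of ex vivo Foxp3+ and Foxp3- cells and 3 in the translation shift of Foxp3- cells. Median centring gave 16 in that shift. After cyclic loess, members called were 5 in activation of Foxp3- cytosolic mRNA, 1 in each activated subset comparison and 1 in the cytosolic subset difference of activation, and the shift of Foxp3- cells had 45 genes. With the array run as a block in ex vivo cells, 5 members and 4923 genes differed between subsets in polysome-associated mRNA and 3 and 4917 in cytosolic mRNA, 240 and 324 genes between fractions of Foxp3+ and Foxp3- cells, and 1 in differential translation.

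Leaving out 1 array at a time, genes called were 2739 to 4618 and 2747 to 4571 in activation of Foxp3+ polysome-associated and cytosolic mRNA, 3150 to 4041 and 2123 to 3770 in that of Foxp3- cells (main counts 5034 and 4301), 3450 to 5309 and 2575 to 4091 between activated subsets and 117 to 265 and 110 to 201 between ex vivo subsets. They were 990 to 1371, 1 to 4 and 0 to 17 between fractions of activated Foxp3+, ex vivo Foxp3+ and ex vivo Foxp3- cells, 1198 to 2183 in differential translation of activated cells, 75 to 826 and 56 to 731 (341 with all arrays) in the subset difference of activation and 0 to 366 and 0 to 91 in the translation shift of Foxp3+ and Foxp3- cells. Members called were 3 to 4 in activation of Foxp3- polysome-associated mRNA, 0 to 2 in polysome-associated mRNA between activated subsets, 1 to 2 in differential translation of activated cells, 0 to 2 and 0 to 1 between fractions of activated Foxp3+ and Foxp3- cells, and 0 to 1 in each subset difference of activation and in the shift of Foxp3+ cells.

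For the MYC target list, added after the data were seen, leaving out 1 array gave 12 to 15 and 13 to 18 calls between activated subsets. With 2 arrays a group, 8 residual degrees of freedom and duplicates of members up to 2.46 apart, the number of arrays limits the precision. The median SD between duplicates was 0.119 to 0.161 in ex vivo groups and 0.24 to 0.33 in activated groups. The main fit shares 1 spread per gene among them, so comparisons of activated cells also draw on the tighter ex vivo duplicates. The cause of the changes between settings was not tested.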

Other observations

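Genes of amino acid sensing by mTORC1 moved in both directions with activation. Of 37 listed 33 were measured, and 6 were higher and 9 lower in polysome-associated mRNA of Foxp3+ cells, 8 and 11 in their cytosolic mRNA, 6 and 10 in polysome-associated mRNA of Foxp3- cells and 4 and 9 in their cytosolic mRNA, while over all genes 14.7%, 16.9%, 14.1% and 13.6% were higher and 14.6%, 14.4%, 16.4% and 12.5% lower in the same order. Rptor, the substrate-binding subunit of mTORC1, was higher in all 4 comparisons by 3.19 to 4.71, with ex vivo means of 3.34 to 3.62 below the array medians, as was Akt1s1, which encodes the mTORC1 inhibitor PRAS40, by 0.69 to 1.45. Castor1, an arginine sensor that restrains mTORC1, was lower in all 4, with -3.23 to -4.81, and Sesn1, a relative of the leucine sensor sestrin 2, was lower with -2.57 to -3.57. Between activated subsets 8 genes of this list were higher and 7 lower in polysome-associated mRNA of Foxp3+ cells, and 2 higher and 3 lower in cytosolic mRNA, or 45.5% and 15.2% called beside 32.4% and 26% of all genes.

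Partners and regulators of MYC changed in both directions. Of 28 listed 26 were measured, with 6 higher and 1 lower in polysome-associated mRNA of Foxp3+ cells after activation, 9 higher and 3 lower in that of Foxp3- cells and 7 higher and 3 lower in the cytosolic mRNA of each. The shares called were 26.9% and 46.2% in polysome-associated and 38.5% in either cytosolic mRNA, beside 29.3%, 30.6%, 31.4% and 26.1% of all genes. Ruvbl2, a helicase that binds MYC, was higher in all 4 comparisons, by 2.41 to 3.09, and Bptf, a chromatin remodelling factor, was lower in all 4, with -1.51 to -2.49. In polysome-associated mRNA of activated cells 5 were higher and 7 lower in Foxp3+ than in Foxp3- cells (18.7% and 13.7% of all genes), among the lower ones Mycbp, which encodes a MYC-binding protein, with -3.19 (adjusted p = 0.000325) and Skp2, a ubiquitin ligase subunit, with -2.65 (adjusted p = 0.000235). Fbxw7, the ubiquitin ligase subunit that marks MYC for degradation, was lower in Foxp3+ cells in polysome-associated mRNA, -2.07 (adjusted p = 0.00804), and higher in cytosolic mRNA, 1.68 (adjusted p = 0.0236).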
